A study of Sorghum bicolor with 12 samples.

Results

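The circadian clock genes LHY, PRR37, TOC1 and GI were followed through 6 pools of sorghum (Sorghum bicolor) root RNA. These 4 genes were taken by gene ID (LHY, Sobic.007G047400; PRR37, Sobic.006G057866; TOC1, Sobic.004G216700; GI, Sobic.003G040900) from a table of 34129 genes, and all 4 were among the 23707 genes that passed the low-count filter. The mutant bri1-ems72 carries a chemically induced allele of the brassinosteroid receptor gene BRI1, and WT-ems72 is its wild-type sibling. Both came from selfed progeny of a second backcross, so parts of the remaining genetic background may still segregate between plants. Each genotype had 3 pools of at least 6 roots, cut from 8-day-old seedlings that had been raised in vitro at 28 °C from embryos explanted 13 to 17 days after anthesis, with no treatment. The labels call the pools biological replicates and give neither the hour of harvest nor the light regime. Each pool was sequenced in 2 technical runs whose counts were summed, which gave 44896605 to 51018644 counts per bri1-ems72 pool and 44357644 to 54629427 per WT-ems72 pool. Levels are given as CPM, counts scaled to the library's total with TMM factors. BRI1 itself (Sobic.003G277900) ranged over 97.9 to 106.9 CPM in the bri1-ems72 pools, against 75.0 to 88.5 CPM for WT-ems72; since a mutated gene can still be transcribed this is no check of the genotype labels. The table names no marker genes of root or shoot cells, so the tissue label was not checked against markers.

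The plant clock is a loop of transcription factors that repress each other in sequence through the day and night. In Arabidopsis, the MYB factor LHY peaks around dawn and represses genes of later phases, while the pseudo-response regulators (PRRs) follow during the day and TOC1 around dusk, each repressing LHY in turn. GI, a protein that stabilises clock F-box proteins in Arabidopsis, peaks late in the day. In sorghum, PRR37 is the maturity gene Ma1, which delays flowering in long days. Because LHY and the evening genes peak at different hours, the ratio of LHY to a later-phase gene within a sample serves as a sign of the clock phase at which it was taken. Roots of Arabidopsis also run a clock, but whether these genes follow the same sequence in sorghum roots was not tested here. A pool of cut roots gives an average over cells. In such bulk RNA, fewer cells in a given phase and less transcript per cell cannot be told apart.

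LHY differed widely between root pools, TOC1 and GI less so, and these differences ran across the genotypes. In 1 pool of each genotype, bri1-ems72 replicate 1 and WT-ems72 replicate 2, LHY was high and TOC1 and GI were low, and in the other 4 pools LHY was low and TOC1 and GI were high. PRR37 was also highest in those same 2 pools. For TOC1 and PRR37 the gap between these sets was only about as large as the span of the other 4 pools. None of the 4 genes passed the test between bri1-ems72 and WT-ems72. Since CPM is not corrected for transcript length, levels are compared between pools and not between genes.

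LHY, the morning factor, had 647.6, 37.7 and 71.6 CPM in bri1-ems72 replicates 1, 2 and 3, against 51.0, 853.9 and 48.2 CPM in WT-ems72 replicates 1, 2 and 3. The lower of the 2 high pools, bri1-ems72 replicate 1, stood 9.04-fold above the next pool, and the highest pool was 22.6-fold above the lowest. The groups overlapped widely, with 1 high pool in each. Among the other 4 pools LHY varied 1.90-fold and was highest in bri1-ems72 replicate 3. WT-ems72 replicates 1 and 3 were the only neighbours in this order whose 95% Poisson intervals overlapped (48.9 to 53.1 CPM and 46.4 to 50.1 CPM). These intervals cover counting error only.

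TOC1, the evening pseudo-response regulator, ran the other way. It had 65.7, 146.4 and 118.1 CPM in bri1-ems72 replicates 1, 2 and 3, against 169.9, 82.4 and 138.2 CPM in WT-ems72 replicates 1, 2 and 3. The lowest values were those of bri1-ems72 replicate 1 and WT-ems72 replicate 2. Among the other 4 pools TOC1 spanned 1.44-fold, about as much as the gap below them. The nearest of these, bri1-ems72 replicate 3, was 1.43-fold above WT-ems72 replicate 2. That pool also had the third highest LHY, so the 3 pools with the most LHY were the 3 with the least TOC1. The order within these 3 was not a mirror image: WT-ems72 replicate 2 had more of both LHY and TOC1 than bri1-ems72 replicate 1.

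GI had the same 2 pools at its low end. It had 600.8, 891.2 and 933.5 CPM in bri1-ems72 replicates 1, 2 and 3, against 1086, 617.1 and 918.3 CPM in WT-ems72 replicates 1, 2 and 3. The nearest of the other 4 pools was 1.44-fold above WT-ems72 replicate 2, and these other 4 spanned only 1.22-fold. The 95% Poisson intervals of bri1-ems72 replicate 3 and WT-ems72 replicate 3 overlapped at their edges (925.1 to 941.9 CPM and 910.3 to 926.3 CPM). Such an overlap is no test of whether the values differ. In GI, bri1-ems72 replicate 3 did not share the intermediate place it had for LHY and TOC1.

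PRR37, the day-phase regulator, was read at low depth, with 120 to 479 counts per pool. It had 5.94, 3.38 and 3.56 CPM in bri1-ems72 replicates 1, 2 and 3, against 2.96, 11.0 and 2.18 CPM in WT-ems72 replicates 1, 2 and 3. The highest value was again in WT-ems72 replicate 2, followed by bri1-ems72 replicate 1, whose interval of 5.23 to 6.72 CPM lay above the 3.07 to 4.12 CPM of the next pool. PRR37, whose usual phase lies between those of LHY and TOC1, thus stood with LHY and opposite TOC1 and GI in these pools. Among the other 4 pools each value's interval overlapped that of its neighbour, and PRR37 spanned 1.63-fold. The lower of the 2 high pools stood 1.67-fold above the nearest of them, about as much as that span. The 2 high pools themselves differed 1.85-fold. The 2 columns of WT-ems72 replicate 3 held 75 and 45 counts, and this log2 difference of 0.73 between runs of the same RNA was the largest for any of the 4 genes. For LHY, TOC1 and GI the runs of a pool differed by at most 0.052 on the log2 scale.

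**Figure D1:**
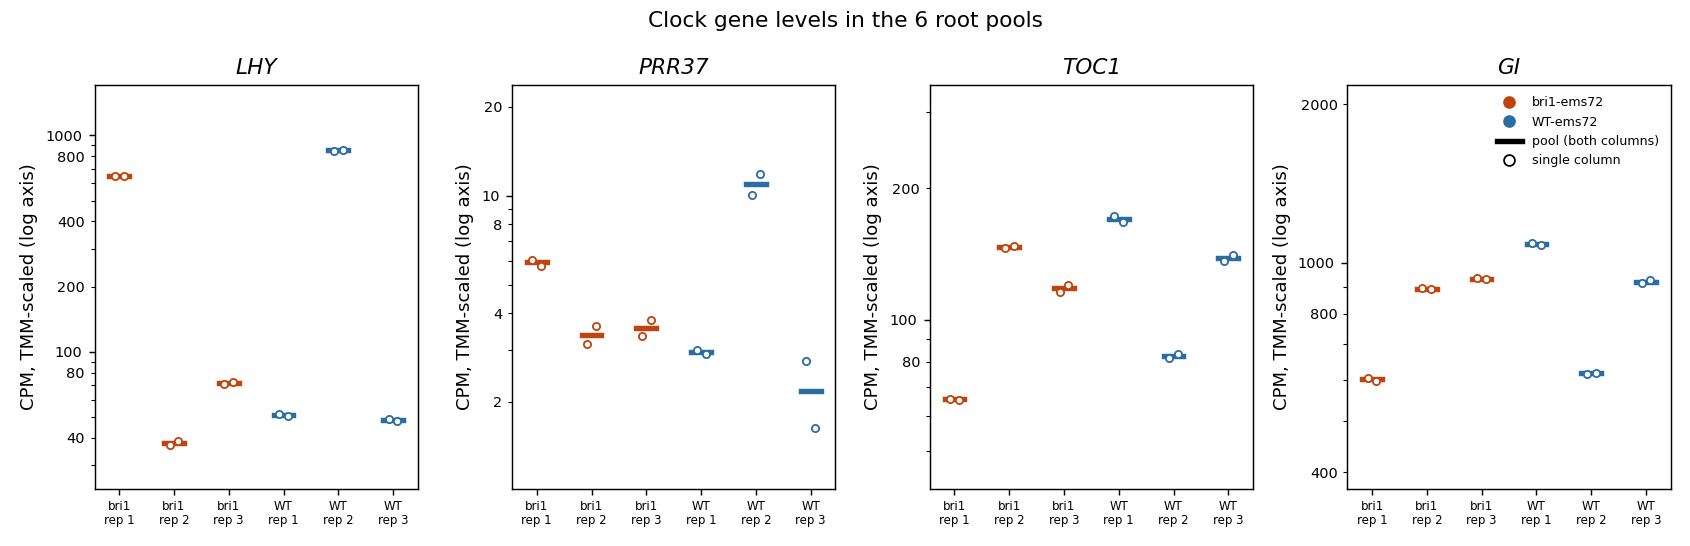
CPM of LHY, PRR37, TOC1 and GI (log axes with their own range) in the 3 bri1-ems72 and 3 WT-ems72 root pools, with bars for the summed pool and open circles for its 2 single columns. LHY and PRR37 are highest, and TOC1 and GI lowest, in bri1-ems72 replicate 1 and WT-ems72 replicate 2, and the 2 columns of a pool lie close together except for PRR37 in WT-ems72 replicate 3.

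The ratio of LHY to each later-phase gene, which does not depend on library scaling, put the pools into the same 2 sets. LHY is part of every ratio and varied most of the clock genes, so this division largely repeats that of LHY and is no separate evidence. The ratio of LHY to TOC1 was 9.86, 0.258 and 0.606 in bri1-ems72 replicates 1, 2 and 3, against 0.300, 10.4 and 0.349 in WT-ems72 replicates 1, 2 and 3. The ratio of LHY to GI was 1.08, 0.0423 and 0.0767 in the bri1-ems72 pools, against 0.0469, 1.38 and 0.0525 in the WT-ems72 pools. With PRR37 as the later gene the ratio was 109, 11.2 and 20.1 in the bri1-ems72 pools, against 17.2, 77.8 and 22.1 in the WT-ems72 pools. Since PRR37 was itself highest in the 2 pools of high LHY, this last ratio is not read as a sign of phase. Every ratio was highest in bri1-ems72 replicate 1 and WT-ems72 replicate 2 and lowest in bri1-ems72 replicate 2. The size of a ratio also depends on the lengths of both transcripts, so only its differences between pools are read. The labels give no hour of harvest, so its part in these ratios was not tested.

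Between the genotypes the ratios did not differ beyond the spread between pools. The log2 ratio of LHY to TOC1 averaged 0.21 ± 2.75 in bri1-ems72 and 0.039 ± 2.89 in WT-ems72 (SD, n = 3 each), a difference of 0.17 (exact two-sided permutation test, p = 1.0). The log2 ratio of LHY to GI averaged -2.72 ± 2.49 in bri1-ems72 and -2.73 ± 2.77 in WT-ems72 (SD, n = 3 each), a difference of 0.013 (exact permutation test, p = 1.0). That of LHY to PRR37 averaged 4.85 ± 1.71 in bri1-ems72 and 4.94 ± 1.17 in WT-ems72 (SD, n = 3 each), a difference of -0.090 (exact permutation test, p = 0.9). Adjusted over the 3 ratios (Benjamini-Hochberg), each p was 1.0, and 3 pools against 3 cannot go below 0.1.

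The SDs show how little these averages can resolve, since each genotype mixes pools that lie far apart. Leaving out 1 pool turned the sign of every ratio difference: that of LHY to TOC1 was -1.38 without bri1-ems72 replicate 1, -0.72 without WT-ems72 replicate 1 and -0.61 without WT-ems72 replicate 3, and it was 1.84 without WT-ems72 replicate 2. Between the 2 pools of high LHY alone, bri1-ems72 replicate 1 minus WT-ems72 replicate 2, the log2 ratio to TOC1 differed by -0.071 and that to GI by -0.36. Over the other 4 pools the mean of bri1-ems72 minus that of WT-ems72 was 0.29 for TOC1 and 0.20 for GI. The log2 ratio to PRR37 differed by 0.48 between the 2 pools of high LHY and by -0.38 over the other 4. For each of TOC1, GI and PRR37 the 2 differences thus had opposite signs. These values carry no test. The log2 ratio to TOC1 was at least 3.30 in the 2 pools of high LHY and at most -0.72 in the other 4, and the ratio to PRR37 was at least 6.28 and at most 4.44. These gaps largely follow from LHY itself, whose values marked out the 2 pools.

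**Figure D2:**
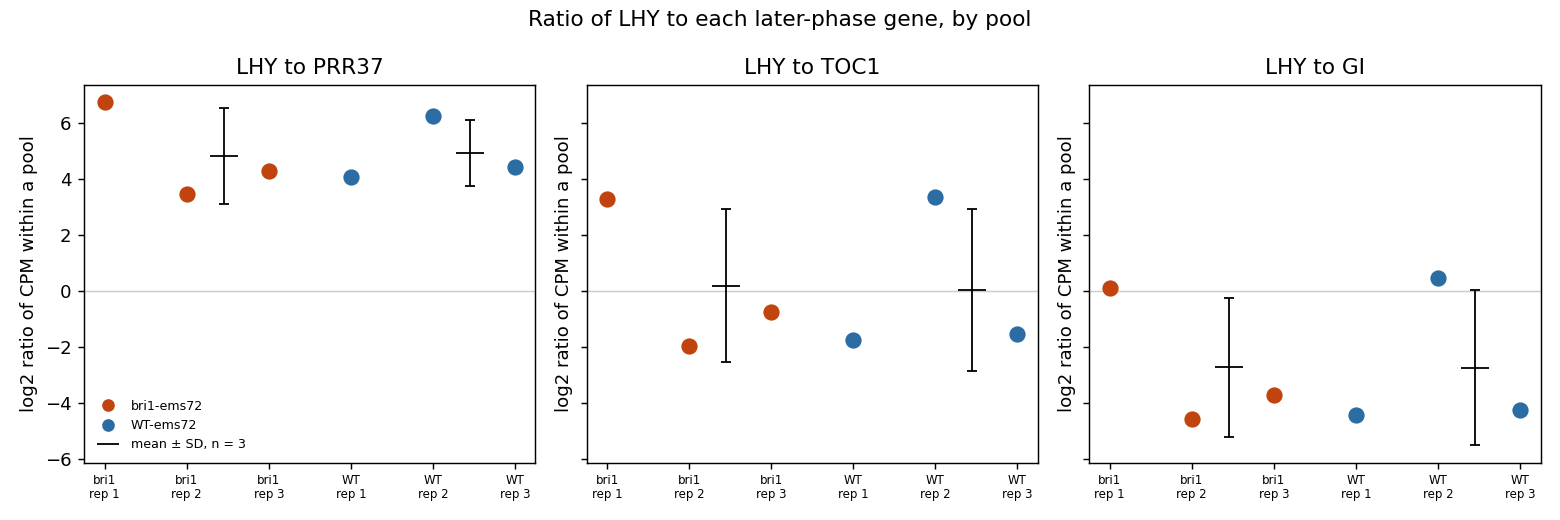
Log2 ratio of the CPM of LHY to that of PRR37, TOC1 or GI within each root pool, with the mean and SD of the 3 bri1-ems72 and the 3 WT-ems72 pools. The LHY to TOC1 ratio is 3.30 in bri1-ems72 replicate 1 and 3.37 in WT-ems72 replicate 2 and lies between -1.95 and -0.72 in the other 4 pools.

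The test between genotypes across all genes called none of the 4. Of the 23707 genes tested, 0 passed at an adjusted p below 0.05 in either direction (edgeR quasi-likelihood test, 0% called), and 337 (1.42%) had an unadjusted p below 0.05. Of the 4 clock genes, 0 had an unadjusted p below 0.05, and for 0 of 4 did the genotypes' ranges separate, against 1085 (4.58%) of all tested genes. DESeq2 called 4 genes (0.0169%) and edgeR's likelihood ratio test 2 (0.00844%), none of them a clock gene; DESeq2 gave LHY no p. LHY averaged 252 ± 343 CPM in bri1-ems72 and 318 ± 464 CPM in WT-ems72 (SD, n = 3 each), and bri1-ems72 over WT-ems72 stood at -0.33 on the log2 scale (SE 1.42; 95% interval -3.69 to 3.03; edgeR adjusted p = 1.00). PRR37 averaged 4.29 ± 1.43 CPM in bri1-ems72 and 5.37 ± 4.87 CPM in WT-ems72 (SD, n = 3 each), and bri1-ems72 over WT-ems72 stood at -0.32 on the log2 scale (SE 0.64; 95% interval -1.85 to 1.20; edgeR adjusted p = 1.00). TOC1 averaged 110 ± 40.9 CPM in bri1-ems72 and 130 ± 44.3 CPM in WT-ems72 (SD, n = 3 each), and bri1-ems72 over WT-ems72 stood at -0.24 on the log2 scale (SE 0.38; 95% interval -1.13 to 0.65; edgeR adjusted p = 1.00). GI averaged 808 ± 181 CPM in bri1-ems72 and 874 ± 238 CPM in WT-ems72 (SD, n = 3 each), and bri1-ems72 over WT-ems72 stood at -0.11 on the log2 scale (SE 0.32; 95% interval -0.87 to 0.65; edgeR adjusted p = 1.00). Exact two-sided permutation tests of log2 CPM gave p = 1.0 for LHY and PRR37 and p = 0.6 for TOC1 and GI.

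For LHY both ends of the interval lay beyond an 8-fold change, while for GI both ends lay within a 2-fold change. Which pool was in the fit decided the sign of the LHY contrast. Its log2 fold change was -2.55 without bri1-ems72 replicate 1 and 2.35 without WT-ems72 replicate 2. It was 0.18 without bri1-ems72 replicate 2, 0.11 without bri1-ems72 replicate 3, -0.83 without WT-ems72 replicate 1 and -0.84 without WT-ems72 replicate 3. PRR37 turned to 0.74 without WT-ems72 replicate 2, TOC1 to 0.0059 without bri1-ems72 replicate 1, and GI to 0.045 without bri1-ems72 replicate 1 and 0.072 without WT-ems72 replicate 1. No fit with a pool left out called any of the 4 genes (edgeR).

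A further fit left out both bri1-ems72 replicate 1 and WT-ems72 replicate 2, a choice made after their values were seen. The LHY log2 fold change was then 0.13 with an SE of 0.36 (95% interval -0.77 to 1.03, edgeR adjusted p = 1.00). Because the 2 pools were picked for their LHY values, the small SE and narrow interval of LHY follow from that choice. They do not measure the error of the LHY contrast. The same fit of 2 pools against 2 gave 0.43 (SE 0.40) for PRR37, -0.23 (SE 0.29) for TOC1 and -0.14 (SE 0.32) for GI, none of them called. Over all genes it called 0 of 23982, with 512 (2.13%) at an unadjusted p below 0.05. The clock genes therefore showed no called difference between the genotypes with or without these 2 pools.

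**Figure D3:**
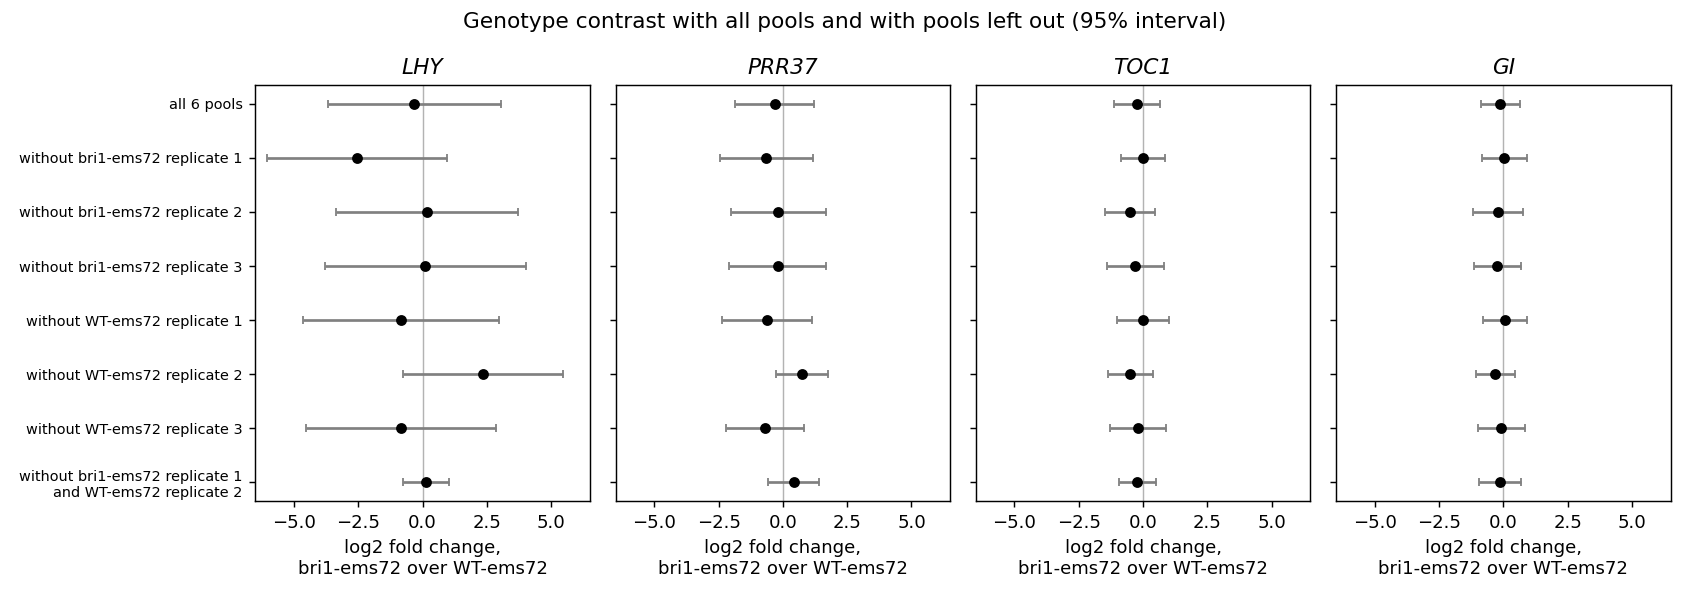
Log2 fold change of bri1-ems72 over WT-ems72 for each clock gene, with a 95% interval computed from the edgeR test statistic, for all 6 pools, with each pool left out in turn, and without both pools of high LHY. The LHY value moves between -2.55 and 2.35 as single pools are left out, and every interval shown includes 0. The LHY interval is narrowest in the fit of 2 pools against 2, where the pools left out were picked for their LHY values.

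Set against all tested genes, LHY stood out in its spread between pools and GI did not. The SD of log2 CPM over the 6 pools was 2.02 for LHY, a value that 145 of the 23707 tested genes exceeded. It was 0.83 for PRR37, 0.53 for TOC1 and 0.35 for GI, against a median of 0.39 over all tested genes. PRR37 lay at the 85.1 percentile, TOC1 at the 65.9 and GI at the 44.8 percentile of this measure. PRR37's spread includes more counting noise than the others' because of its low counts. Genotype accounted for 0.056% of the variance of log2 CPM for LHY, 0.00016% for PRR37, 7.09% for TOC1 and 2.47% for GI, against a median of 6.51% over all tested genes. Nearly all the variation of these genes was thus between pools of the same genotype, as it was for the median tested gene.

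**Figure D4:**
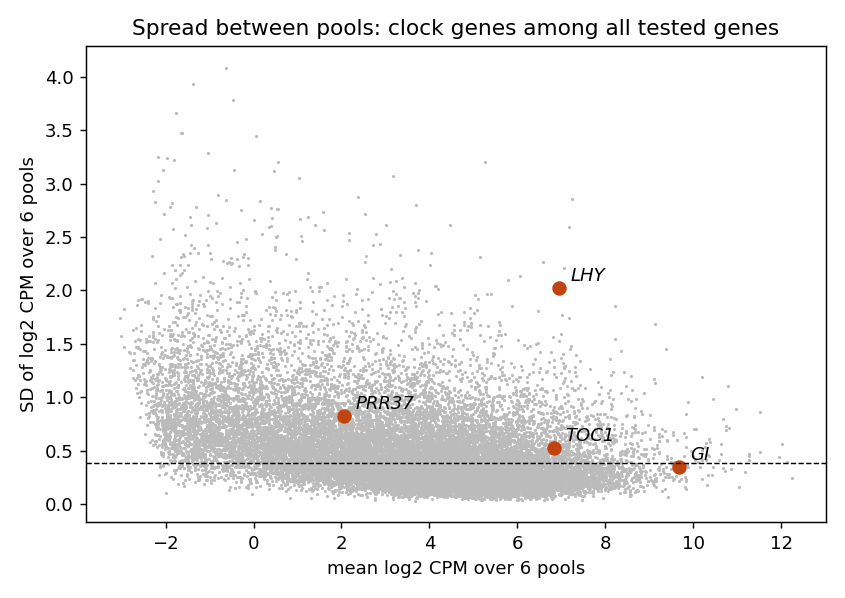
SD of log2 CPM over the 6 root pools against mean log2 CPM for every tested gene (grey), with the clock genes in orange and the median SD as a dashed line at 0.39. LHY, at 2.02, lies far above most genes of its level, PRR37 at 0.83 and TOC1 at 0.53 lie above the median, and GI at 0.35 lies just below it.

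The likeness of other genes to each clock gene was measured as Pearson's r of log2 CPM over the 6 pools, among genes with a mean of at least 5 CPM, with PRR37 added although its mean was 4.83 CPM, so that each clock gene was compared with 17043 others. With only 6 pools, a high r with LHY mostly says that a gene shares its division into 2 high and 4 low pools. TOC1 and PRR37 were more graded across the pools. Every r is given as a description. PRR37 had an r of 0.91 with LHY, GI of -0.94 and TOC1 of -0.93, ranks of 407 from the top for PRR37 and of 112 and 126 from the bottom for GI and TOC1. TOC1 and GI had an r of 0.96 with each other, and GI was at rank 26 from the top among the genes compared with TOC1. An r of at least 0.95 with LHY was found for 175 genes and one of at most -0.95 for 60. The corresponding numbers were 131 and 136 for PRR37, 36 and 26 for TOC1, and 59 and 73 for GI, each out of 17043. With only 6 pools unrelated genes can also reach such an r, and how many would do so was not tested.

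The genes closest to LHY have no names in the table. Sobic.010G259100 (r = 0.996) had 11.6, 4.86 and 6.00 CPM in bri1-ems72 replicates 1, 2 and 3, against 5.31, 12.5 and 4.76 CPM in WT-ems72 replicates 1, 2 and 3. Sobic.010G096300 (r = 0.996) had 13.2, 1.69 and 3.23 CPM in the bri1-ems72 pools, against 2.50, 19.4 and 2.27 CPM in the WT-ems72 pools. Both repeated the order of LHY in their 3 highest pools. At the opposite end, Sobic.001G199500 (r = -0.993) had 16.2, 24.9 and 22.1 CPM in the bri1-ems72 pools, against 23.7, 14.6 and 22.7 CPM in the WT-ems72 pools. Sobic.009G151400 (r = -0.992) had 19.9, 27.4 and 25.6 CPM in the bri1-ems72 pools, against 27.6, 19.5 and 26.2 CPM in the WT-ems72 pools. Both were lowest in bri1-ems72 replicate 1 and WT-ems72 replicate 2. The 3 genes closest to PRR37, to TOC1 and to GI had an r of 0.994 to 0.998, 0.983 to 0.994 and 0.993 to 0.997, and none of them was one of the 4 clock genes.

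The 2 pools of high LHY also had the highest scores on the first principal component of all tested genes, which held 34.1% of the variance of log2 CPM. On it bri1-ems72 replicates 1, 2 and 3 scored 64.6, -14.2 and -53.6, against 2.40, 65.3 and -64.5 for WT-ems72 replicates 1, 2 and 3. The other 4 pools were spread widely on it and did not form a single set. On the second component, with 28.4%, the 2 pools of high LHY lay apart, at -15.2 for bri1-ems72 replicate 1 and 61.6 for WT-ems72 replicate 2. The others scored -60.3 and 47.8 for bri1-ems72 replicates 2 and 3, and -52.7 and 18.7 for WT-ems72 replicates 1 and 3. On the third component, with 18.2%, the 2 pools of high LHY again lay apart, at -61.4 for bri1-ems72 replicate 1 and 40.6 for WT-ems72 replicate 2. Across all tested genes, the deviations of the 2 pools of high LHY from their genotype means had an r of 0.24. Pools that share a number in their sample titles had a higher r. It was 0.39 for bri1-ems72 replicate 2 with WT-ems72 replicate 1, and 0.40 for replicate 3 of both genotypes. The part of sampling time in these components was not tested.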

How the data were processed

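RNA of 6 root pools was measured as stranded mRNA libraries with paired reads of 100 nt, per the labels' protocols. The authors deposited raw counts per gene, made with Trimmomatic 0.38, HISAT2 2.1.0 and featureCounts 1.6.2, per the submitters' processing notes; the build, the annotation and the strand setting are not stated there, and reads could be split between overlapping genes or near-identical copies. The 12 columns carry 6 names, and the 2 columns of a name were summed as 1 pool. From these counts, edgeR 4.0.16 in R 4.3.3 was run on all genes left by filterByExpr (10422 removed), with TMM scaling (factors 0.953 to 1.03), a robust quasi-likelihood fit with genotype as the only term, and Benjamini-Hochberg adjustment at 0.05. Log2 CPM used a prior count of 2. Ratios of LHY to each later gene were log2 CPM differences, compared by exact permutation. Alternatives covered scaling, filter, DESeq2 1.42.0, limma-voom (limma 3.58.1), edgeR's likelihood ratio test, replicate blocks, single columns and pools left out.

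The members and lists were chosen with earlier results of these data known. The rule for named genes took the 4 clock genes and, for each, the 3 genes of highest and the 2 of lowest r, of which IDs are printed for LHY, at most 2 in each direction. Further clock genes and cell type markers were to be found by product text, but 0 gene IDs matched the RefSeq gene table at hand, directly or as locus tags, so these lists were not applied. The names of the 4 clock genes come from the gene selection, not from the table.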

Additional observations from a re-analysis of the deposited data

How the results depend on the processing

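None of the 4 clock genes was called under any of the 18 alternatives of its contrast that gave a p, with adjusted p of at least 0.999; DESeq2 gave LHY no p because of its outlying counts. Over all genes DESeq2 called 3 higher and 1 lower in bri1-ems72 and edgeR's likelihood ratio test 1 and 1, against 0 and 0 in the other 16 alternatives; the cause was not tested. The sign of a contrast turned with limma-voom for PRR37 (0.029), in the fit without both pools of high LHY for LHY (0.13) and PRR37 (0.43), and with only the first-listed columns for the ratio of LHY to PRR37 (0.021) and to GI (-0.016); the cause was not tested. The replicate block by description number gave log2 fold changes of 0.27 for LHY and 0.043 for PRR37, and the replicate block by title number 0.069 and 0.45, each the other way from the unblocked fit. TOC1 (-0.26 and -0.22) and GI (-0.098 and -0.13) kept their sign in these blocks, and 0 genes were called. The deviations of same-numbered pools (description number) had an r of 0.044, -0.23 and 0.40 across genes, and these numbers are therefore not treated as pairs. The title numbers give only 2 pairs, with an r of 0.39 and 0.40, and the labels do not say what they mark. In the block by title number, bri1-ems72 replicate 1 and WT-ems72 replicate 2 have no partner and do not enter the contrast; at an unadjusted p below 0.05 it had 830 genes higher and 481 lower in bri1-ems72, against 275 and 62 without a block. With single pools left out the contrast ranged over -2.55 to 2.35 for LHY, -0.70 to 0.74 for PRR37, -0.51 to 0.0059 for TOC1 and -0.31 to 0.072 for GI. The ratio differences ranged over -1.05 to 0.60 for LHY to PRR37, -1.38 to 1.84 for LHY to TOC1 and -1.40 to 1.61 for LHY to GI. In these fits 0 genes were called in either direction. Other scalings and filters kept the sign of all 4 contrasts and shifted the median gene by less than 0.1 on the log2 scale. Depth limits PRR37, whose lowest pool had 120 counts, and not the other 3 genes, with at least 1966.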
